A study of Mus musculus with 22 samples.

Results

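The genes described here are known targets of p53, the transcription factor that responds to DNA damage and other stress. They were chosen by name, as 10 members, and were followed across all 22 arrays of a study of mouse aortic endothelial cells. The platform annotation named a probe set for 8 of the 10 members, out of 11807 genes with a named probe set. These were Cdkn1a, Gadd45a, Ccng1, Mdm2, Aen, Bbc3, Fas and Phlda3. Where a gene had several probe sets, the one with the highest average across the 22 arrays was used. Trp53 and Bax were not analysed here.

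All mice carried the strain label C57BL/6 and were kept on chow. Aortas of wild-type mice were opened and incubated for 4 h in DMEM with 1% FBS that contained lipopolysaccharide (LPS, 4 ng/mL, n = 3), oxidized low-density lipoprotein (oxLDL, 50 µg/mL, n = 3) or oxidized palmitoyl-arachidonoyl-phosphocholine (oxPAPC, 50 µg/mL, n = 3), or in the same medium alone (n = 3). Fresh, untreated intima came from 4-week-old ApoE -/- mice (n = 4), labelled hyperlipidemic before lesions form, and from 4-week-old wild-type mice (n = 6). The labels give no age for the incubated aortas and no number of animals per array, so the p-values reflect the spread among arrays alone, which may be technical. Cells were scraped from the luminal side, and RNA was required to reach an integrity number of 7.0. Values are log2 RMA signals, on which 1 unit is a 2-fold difference, and the small number of arrays limits their precision.

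p53 is normally kept low by the ubiquitin ligase Mdm2, whose own gene p53 activates, so that the pair forms a feedback loop. Once stabilised, p53 switches on genes that halt the cell cycle, such as Cdkn1a, which encodes the cyclin-dependent kinase inhibitor p21, and genes that promote apoptosis, such as Bbc3 and Fas. Several of these genes, Cdkn1a and Gadd45a among them, also respond to stress signals that do not pass through p53. In endothelium the pathway is known for its part in growth arrest, senescence and cell death.

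The promoter windows of the members that rose in incubated aortas are shown because p53 binds DNA through pairs of a 10-base half-site. Sequences are from RefSeq on GRCm38.p6, cover 250 bases before and 50 bases after an annotated start of transcription, and run 5′ to 3′ on the gene's strand. The half-site was searched with no mismatch, and its pattern reads the same on both strands. Capitals mark its matches. All 8 members matched the table, with 12 windows in all. The Cdkn1a window at chr17:29090729-29091028 (plus strand) held 2 matches, which began 73 and 51 bases before the start. The second Cdkn1a window, at chr17:29093519-29093818 (plus strand), held none. The Gadd45a window at chr6:67037358-67037657 (minus strand) held 1 match, 40 bases before the start. The Mdm2 window at chr10:117710709-117711008 (minus strand) held 1 match, 186 bases before the start. In the Aen window at chr7:78895677-78895976 (plus strand) the match began at base 11 of the transcript.
Cdkn1a: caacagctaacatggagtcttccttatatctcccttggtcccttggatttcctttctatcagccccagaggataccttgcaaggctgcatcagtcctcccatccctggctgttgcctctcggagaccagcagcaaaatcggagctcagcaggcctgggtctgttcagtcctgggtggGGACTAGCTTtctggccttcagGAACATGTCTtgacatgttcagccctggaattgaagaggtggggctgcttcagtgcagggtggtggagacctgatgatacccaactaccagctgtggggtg
Gadd45a: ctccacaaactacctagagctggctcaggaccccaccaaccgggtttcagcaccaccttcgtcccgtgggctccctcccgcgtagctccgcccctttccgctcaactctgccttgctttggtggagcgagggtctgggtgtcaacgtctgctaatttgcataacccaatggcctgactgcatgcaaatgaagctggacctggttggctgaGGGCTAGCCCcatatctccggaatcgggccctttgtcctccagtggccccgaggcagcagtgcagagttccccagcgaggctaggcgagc
Mdm2: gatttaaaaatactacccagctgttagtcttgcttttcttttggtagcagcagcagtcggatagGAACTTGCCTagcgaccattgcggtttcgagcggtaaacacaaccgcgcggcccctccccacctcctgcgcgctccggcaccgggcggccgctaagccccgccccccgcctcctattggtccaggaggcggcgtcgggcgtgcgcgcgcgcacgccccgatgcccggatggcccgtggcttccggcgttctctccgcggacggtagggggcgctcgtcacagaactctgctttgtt
Aen: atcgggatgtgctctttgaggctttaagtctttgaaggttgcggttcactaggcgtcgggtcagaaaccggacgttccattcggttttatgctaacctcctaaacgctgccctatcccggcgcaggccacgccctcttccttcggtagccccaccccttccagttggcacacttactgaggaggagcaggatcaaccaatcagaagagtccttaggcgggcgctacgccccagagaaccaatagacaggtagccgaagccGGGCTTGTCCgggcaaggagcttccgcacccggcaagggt
In all, 5 of the 8 members held a half-site in at least 1 of their windows, against 9.55% of the 27025 genes in the table, which had 32851 windows of the same length. The second Aen window overlaps the first and holds the same match. The further member with a match was Ccng1, 185 bases before its start, and the windows of Bbc3, Fas and Phlda3 held none. The matches in the Cdkn1a window lay close enough to count as a pair (a spacer of at most 13 bases), as in 0.0731% of all windows. A match is a description of letters and not evidence of binding.

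Arrays of the same group correlated at r = 0.9771 to 0.9907 across genes. The first principal component held 60% of the variance. A signal above the 40th percentile of all probe sets on an array (4.581 to 4.706) was taken as the level needed for testing. Every array exceeded it for 15 of 15 endothelial markers in 5 groups and for 14 of 15 in the LPS group, but for 0 of 5 markers of T and B cells in every group. Smooth muscle markers were also high, with mean signals of 7.55 to 9.61, so the samples were not endothelium alone. In such bulk RNA, fewer cells of a type and less RNA per cell cannot be told apart. Apoe measured 3.04 to 3.23 in ApoE -/- intima, against 3.78 to 4.35 in wild-type intima, but it lay below the 40th percentile on all 22 arrays, as it did in the oxPAPC group (3.06 to 3.18), so its level is a weak check of the genotype.

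The members fell into genes that spanned a wide range across the 6 groups and genes that spanned a narrower one. Group means of Gadd45a spanned 4.34 log2 units, those of Cdkn1a 4.12, Aen 2.61, Fas 1.80 and Mdm2 1.49. Phlda3 (0.71), Bbc3 (0.64) and Ccng1 (0.62) spanned less than 1 unit. For Cdkn1a, Gadd45a, Aen and Mdm2 the lowest of the 4 incubated groups lay above both fresh groups with no overlapping array. Fas had another pattern, lowest with oxPAPC and highest with LPS.

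**Figure D1:**
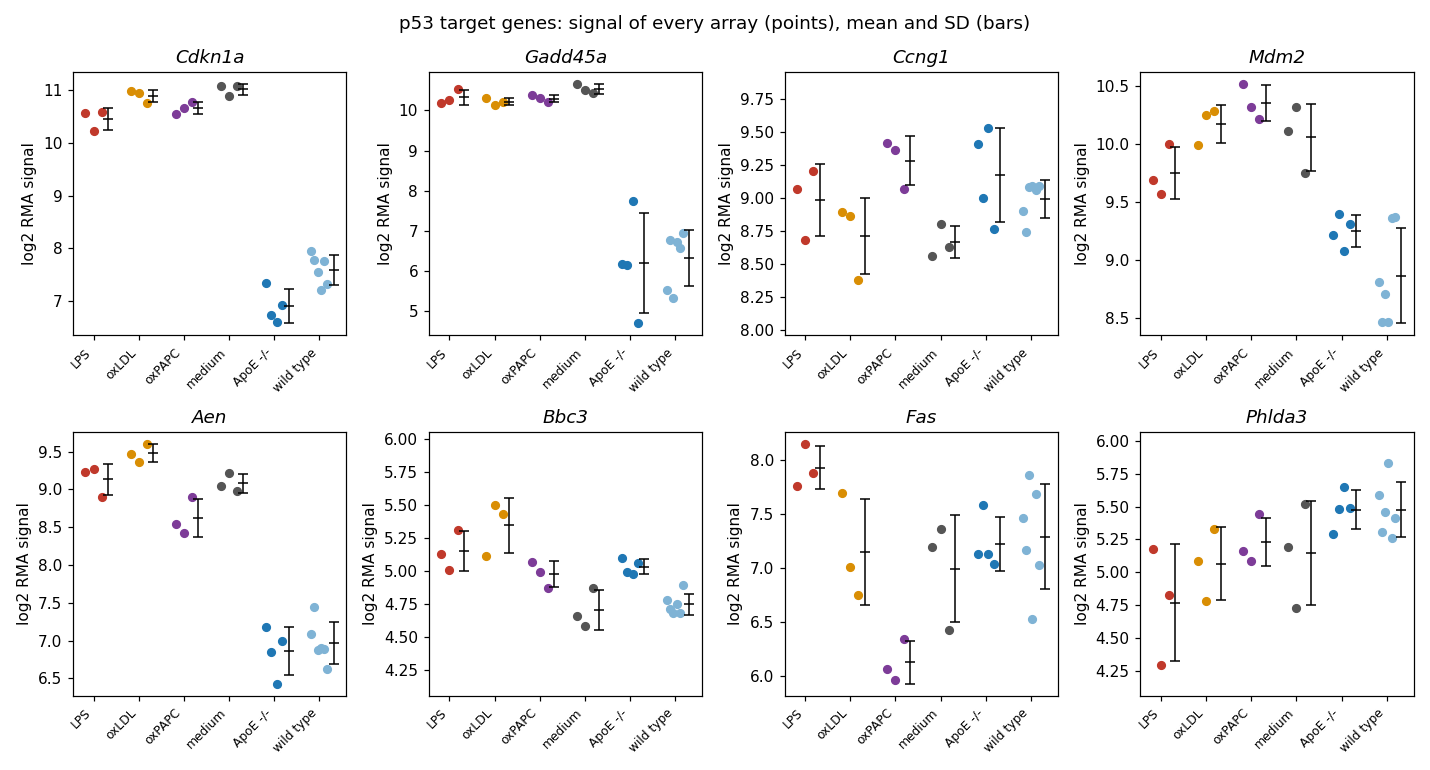
Log2 RMA signal (y axis) of the 8 p53 target genes on every array, by group (x axis); points are arrays, and the bar beside them is the mean with its SD. Each panel has its own scale, of at least 2 units. The incubated arrays of Cdkn1a, Gadd45a, Aen and Mdm2 lie above the fresh ones, and Fas is lowest with oxPAPC.

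The first comparison sets aortas kept for 4 h in medium alone against fresh wild-type intima, and asks what handling and culture do before any stimulus is added. Cdkn1a was 10.7-fold higher and Gadd45a 18.6-fold higher in medium, and Aen and Mdm2 also rose. Ccng1 fell slightly, and Bbc3, Fas and Phlda3 did not pass the test. In limma's moderated test with Benjamini-Hochberg adjustment, 5 of 8 members were called at an adjusted p under 0.05, against 58.7% of all 7508 genes tested. The share of members called was therefore near the background. Higher calls were 4 of 8 members, against 24.3% of all genes, and lower calls 1 of 8, against 34.4%. Of all calls 41.4% were higher, and 52.4% after cyclic loess scaling, at which the median difference of all genes was 0.01, against -0.13 as reported. The median of the 8 members was 0.57.

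Among the members that halt the cell cycle, Cdkn1a, the gene for p21, measured 11.07, 10.89 and 11.08 in medium, against a lowest value of 7.20, a median of 7.65 and a highest of 7.95 in fresh wild-type intima. The groups lay far apart. The difference was 3.42 ± 0.17 (SE, limma adjusted p = 1.95e-07), the 45th largest of 7508. Gadd45a, a stress sensor that binds p21 and the DNA clamp PCNA, measured 10.66, 10.51 and 10.43 in medium, against 5.34, 6.65 and 6.95 (lowest, median, highest) in wild-type intima. The wild-type arrays spread over more than 1 unit, yet none came near the medium arrays. Its difference of 4.22 ± 0.35 (SE, limma adjusted p = 4.25e-06) was the 19th largest. Ccng1, which encodes the atypical cyclin G1, measured 8.56, 8.80 and 8.63 in medium, against 8.74, 9.07 and 9.09 in wild-type intima. These groups overlapped, and the fall of 0.33 (limma adjusted p = 0.0329) is to be read against the median of all genes of -0.13. After cyclic loess it was -0.24 (limma adjusted p = 0.114), and it was called in 3 of the 9 fits that left out 1 array, namely those without wild-type replicate 7 or 8 or medium replicate 10.

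Mdm2, the inhibitor that closes the feedback loop, measured 10.11, 10.32 and 9.75 in medium, against 8.47, 8.76 and 9.37 in fresh wild-type intima. Every medium array lay above every wild-type array. The rise was 2.29-fold (1.19 ± 0.23 on the log2 scale, SE, limma adjusted p = 0.00129). With the mean of the smooth muscle markers as a covariate the difference was 1.10, with a limma adjusted p of 0.0765. Standard errors in that fit were 1.79 times as large at the median. The marker means did not overlap (7.55 to 8.44 in medium, 8.65 to 9.61 in wild-type intima), so group and marker level can hardly be told apart.

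Of the members that act in cell death, Aen, a nuclease that p53 induces during apoptosis, measured 9.04, 9.22 and 8.98 in medium, against 6.62, 6.89 and 7.44 in wild-type intima. The groups did not overlap, and the rise was 4.32-fold (2.11 ± 0.16, SE, limma adjusted p = 3.15e-06). Bbc3, the gene for the BH3-only protein PUMA, measured 4.66, 4.58 and 4.87 in medium, against 4.68, 4.73 and 4.89 in wild-type intima. These values lay close to the 40th percentile, and the difference was -0.04 (95% confidence interval -0.28 to 0.19). Fas, a death receptor of the cell surface, measured 7.20, 7.36 and 6.43 in medium, against 6.53, 7.32 and 7.86 in wild-type intima. The groups overlapped, with a difference of -0.30 (-0.94 to 0.35). Phlda3, which restrains the kinase AKT at the membrane, measured 5.19, 4.73 and 5.52 in medium, against 5.26, 5.44 and 5.83 in wild-type intima, a difference of -0.33 (-0.73 to 0.06).

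Between medium and fresh wild-type intima 4 of 8 members had groups that did not overlap, against 52.4% of all genes. The calls of Cdkn1a, Gadd45a and Aen held in all 16 alternative fits, with differences of 3.34 to 3.56, 3.49 to 4.34 and 1.57 to 2.23. Of the macrophage markers, 8 of 8 tested were higher in medium (mean signal 6.17 to 6.34 per array, against 4.64 to 5.28 in wild-type intima). Of the smooth muscle markers, 9 of 11 were lower (7.55 to 8.44, against 8.65 to 9.61). Of 5 fibroblast markers 2 were higher and 3 lower, and of 15 endothelial markers 5 were higher and 2 lower. Of 4 erythroid and platelet markers 2 were lower. The part of the macrophage, fibroblast, endothelial, erythroid and platelet markers in the members' differences was not tested. Incubation and a possible difference in age cannot be told apart here.

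The other listed genes of the pathway moved in both directions. Of 24 tested direct p53 targets outside the members, 7 rose and 10 fell in medium, with a median of -0.27 against -0.13 for all genes. Sesn2, a stress-induced inhibitor of mTORC1 signalling, rose most: it averaged 7.71 ± 0.46 in medium and 4.12 ± 0.06 in wild-type intima (SD, n = 3 and 6). Pmaip1, which encodes the BH3-only protein NOXA, rose by 2.70 and Tnfrsf10b, a receptor for the death ligand TRAIL, by 2.13. All 18 of the listed genes named as called in medium against wild type, at most 3 per list, were called whichever array was left out. With the smooth muscle covariate 15 of them were called, the exceptions being Tnfrsf1a, Mapk14 and Trp53bp1. Genes named after their values were seen are not among the 18. Sesn2 and Pmaip1 were below the 40th percentile on all 6 wild-type arrays, and Tnfrsf10b exceeded it on 3 of them. The sizes of these 3 rises therefore depend on values near background. Sesn1, a relative of Sesn2, fell by 1.98, and Ddb2, which recognises ultraviolet damage in DNA, fell by 1.22. Sesn1 and Ddb2 were named after their values were seen, as the targets that fell most.

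On a list of 12 tested cell cycle genes, 7 fell and 1 rose, with a median of -0.43. The 7 include genes of cell cycle entry, Cdk6 (-1.11), Ccnd3 (-1.06) and Ccnd2 (-0.28), and Rb1 (-0.53), whose product holds the cycle back, named here after their values were seen. The proliferation marker Mki67 fell by 2.19, Ccna2, the gene for cyclin A2, by 1.53, and the topoisomerase gene Top2a by 1.35, with Top2a below the 40th percentile on all 3 medium arrays. Pcna, the gene for the clamp of replication and repair, was the gene that rose (1.20). Of the relatives of the members (CDK inhibitors and the GADD45 and PHLDA families) 4 of 8 rose and 3 fell. Gadd45b rose by 3.67, Phlda1 by 2.63 and Gadd45g by 1.52, and both GADD45 genes of this list were thus higher in medium, as Gadd45a was. Gadd45b exceeded the 40th percentile on 3 and Phlda1 on 1 of the 6 wild-type arrays, so the sizes of these rises also depend on values near background. Of the BCL2 family, 5 of 10 rose and 2 fell. Bcl2a1a, an inhibitor of apoptosis, rose by 2.69 and the BH3-only gene Bcl2l11 (BIM) by 1.49, while the BH3-only gene Bad fell by 1.70. In the death receptor pathway 3 of 5 rose and 1 fell: the TNF receptors Tnfrsf1b (1.83) and Tnfrsf1a (0.88) were higher and the initiator caspase Casp8 was lower (-0.86). Among kinases and partners upstream of p53, 2 of 7 rose and 2 fell. The deacetylase Sirt1 rose by 1.47, while the kinase Mapk14 fell by 0.81 and the p53-binding protein Trp53bp1 by 0.70. Sirt1 exceeded the 40th percentile on 4 of the 6 wild-type arrays.

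**Figure D2:**
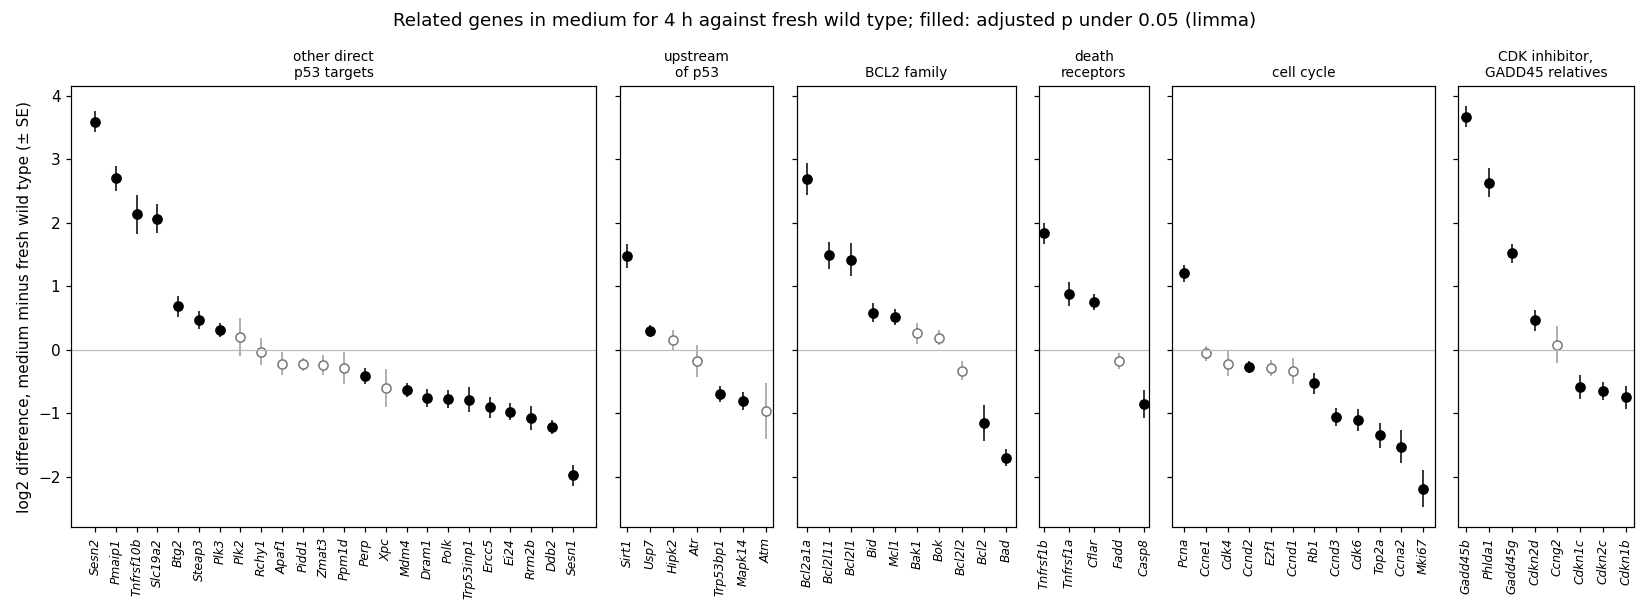
Log2 difference (y axis, bars are SE), medium minus fresh wild type, of every tested gene on 6 lists related to p53 (x axis); filled points passed limma's test at an adjusted p under 0.05. Each list holds both rises and falls; Sesn2 (3.59) and Gadd45b (3.67) lie highest and Mki67 (-2.19) lowest.

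The 3 stimuli were each compared with medium alone, to see what they add to the response to incubation. Because all 3 comparisons share the 3 medium arrays, they are not independent. Against the rise of Cdkn1a, Gadd45a, Aen and Mdm2 with incubation, these genes moved little with the stimuli. Fas, Bbc3, Ccng1 and Phlda3 had not risen with incubation, and their largest differences with a stimulus exceeded that with incubation in size. For Phlda3 the values were close, -0.37 with LPS (limma adjusted p = 0.357) and -0.33 with incubation (0.133). The largest of 3 values was set against a single one, without the share over all genes, so this is a description only. Fas differed by 0.93 with LPS and by -0.87 with oxPAPC, against -0.30 between medium and wild type. No difference of a member exceeded 0.93 on the log2 scale, and the incubated groups of Cdkn1a and Gadd45a were all at 10.14 or higher.

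With LPS, a bacterial activator of Toll-like receptor 4, Cdkn1a was lower, at 10.57, 10.22 and 10.58, against 11.07, 10.89 and 11.08 in medium. All LPS arrays lay below all medium arrays. The difference was -0.55 ± 0.14 (SE, limma adjusted p = 0.0344), 1.47-fold, and Cdkn1a was the one call among 8 members, against 9.05% of 7550 genes. The call was lost when any 1 of the 6 arrays was left out, with limma adjusted p-values of 0.0515 to 0.112. Over all genes the calls in these fits fell to 236 to 374, from 683 as reported. Fas measured 7.76, 8.15 and 7.88 with LPS, against 7.20, 7.36 and 6.43 in medium. The groups did not overlap, but the difference of 0.93 (0.33 to 1.53) missed the threshold (limma adjusted p = 0.054). Bbc3 measured 5.13, 5.01 and 5.31 with LPS, against 4.66, 4.58 and 4.87 in medium, again without overlap, and its difference of 0.44 had a limma adjusted p of 0.0801. Groups that did not overlap were found for 3 of 8 members, against 34.8% of all genes, and the members' median of -0.08 was near that of all genes (-0.03).

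Among the listed genes, LPS changed 0 of 25 other p53 targets in limma's test, where 2071 of all 7550 genes had an unadjusted p under 0.05. The smallest p of this list belonged to Mdm4, the partner of Mdm2, at 9.38 ± 0.18 with LPS and 8.96 ± 0.17 in medium (SD, n = 3 each, limma adjusted p = 0.0729). Mki67 rose by 0.83 and the retinoblastoma gene Rb1 fell by 0.99, the only calls among 12 cell cycle genes. Cflar, which blocks caspase 8 at death receptors, rose by 0.51, the one call among 5 genes of that pathway, and among 8 upstream genes the kinase gene Mapk14 fell by 0.65 and Trp73, a relative of p53, rose, but exceeded the 40th percentile on 1 of 3 LPS and 0 of 3 medium arrays. Of these 5 listed calls, 1 (Rb1) held whichever array was left out and with the smooth muscle covariate. Mki67 was lost in 5 of the 6 fits that left out an array, Mapk14 in 4, and Cflar and Trp73 in all 6. With LPS, 4 of 15 endothelial, 4 of 10 macrophage and 2 of 5 fibroblast markers were lower and 3 of 11 smooth muscle markers higher, and the part of the endothelial, macrophage and fibroblast markers was not tested. Adjusted for the smooth muscle markers, the Cdkn1a difference was -0.61, with a limma adjusted p of 0.154. Standard errors in that fit were 1.45 times as large at the median. The mean smooth muscle signals did not overlap (8.59 to 8.84 with LPS, 7.55 to 8.44 in medium), so group and marker level can hardly be told apart.

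With oxLDL, the modified lipoprotein of atherosclerotic plaques, Bbc3 was higher, at 5.11, 5.50 and 5.43, against 4.66, 4.58 and 4.87 in medium. The groups did not overlap, and the difference was 0.64 ± 0.15 (SE, limma adjusted p = 0.0424), 1.56-fold. One of the medium arrays lay below the 40th percentile for Bbc3, so the size of the rise depends on values near background. It was the 1 call among 8 members, against 2.81% of 7550 genes (of which 26.4% were higher, and 40.5% after median centring). The call held without oxLDL replicate 14 and was lost without any 1 of the other 5 arrays (limma adjusted p = 0.0559 to 0.133). Adjusted for the smooth muscle markers, of which 0 of 11 were called, the difference was 0.54 with a limma adjusted p of 0.207. The smooth muscle markers had a median difference of 0.63 all the same, against 0.01 for all genes, and the macrophage markers one of -0.52, with 1 of 10 lower. Of the fibroblast markers 2 of 5 were lower, Lum by 1.56 and Dcn by 0.76, and of the endothelial markers 1 of 15, Emcn by 1.13. The part of the macrophage, fibroblast and endothelial markers was not tested. Aen measured 9.47, 9.36 and 9.60 with oxLDL, against 9.04, 9.22 and 8.98 in medium. These arrays did not overlap, with a difference of 0.40 (0.04 to 0.75, limma adjusted p = 0.185). Gadd45a measured 10.32, 10.14 and 10.20 with oxLDL, against 10.66, 10.51 and 10.43 in medium, also without overlap (-0.31, -0.61 to -0.02, limma adjusted p = 0.211). Non-overlap in 3 of 8 members compares with 28.2% of all genes. Of 25 other p53 targets 1 fell, the metalloreductase gene Steap3, by 1.23, and among 8 upstream genes Trp53bp1 fell by 0.67. Steap3 was lost in 3 and Trp53bp1 in 5 of the 6 fits that left out an array, and both with the smooth muscle covariate. No gene of the cell cycle, BCL2, death receptor or CDK inhibitor lists was called by limma with oxLDL, where 1635 of all genes had an unadjusted p under 0.05.

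With oxPAPC, a mixture of oxidized phospholipids found in oxidized lipoproteins, Ccng1 rose and Fas fell. Ccng1 measured 9.42, 9.36 and 9.07 with oxPAPC, against 8.56, 8.80 and 8.63 in medium. The difference was 0.62 ± 0.19 (SE, limma adjusted p = 0.0345), 1.54-fold, with no overlap. Fas measured 6.07, 5.97 and 6.35 with oxPAPC, against 7.20, 7.36 and 6.43 in medium. One medium array (6.43) came close to the oxPAPC arrays, and the difference was -0.87 ± 0.27 (SE, limma adjusted p = 0.0422), 1.82-fold. These were 2 calls among 8 members, against 21.3% of 7550 genes, so the share called was near the background. Groups did not overlap for 5 of 8 members, against 40.1% of all genes.

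Both oxPAPC calls were lost in most of the fits that left out 1 array. Over all genes the calls in such fits ranged from 735 to 1999, against 1606 as reported. Ccng1 was called only without oxPAPC replicate 13 among the 6 fits that left out 1 array, and in the other 5 its limma adjusted p was 0.0524 to 0.116. Fas was called without medium replicate 11 or oxPAPC replicate 13 and not in the other 4, with limma adjusted p-values of 0.114 to 0.134. Fas also missed the threshold after median centring (0.0542) or cyclic loess (0.0707). Aen was lower with oxPAPC, at 8.54, 8.42 and 8.90, against 9.04, 9.22 and 8.98 in medium, and its difference of -0.46 (-0.81 to -0.11) missed the threshold (limma adjusted p = 0.0628). Without oxPAPC replicate 13 it was -0.60 and passed (limma adjusted p = 0.0186). Cdkn1a measured 10.55, 10.67 and 10.77 with oxPAPC, below every medium array, with a difference of -0.35 (-0.66 to -0.04, limma adjusted p = 0.0985).

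The oxPAPC samples also differed in their cell type markers. Of the endothelial markers 9 of 15 were lower (mean signal 7.83 to 8.42 per array, against 8.81 to 8.98 in medium), 7 of 11 smooth muscle markers were higher (8.68 to 9.13, against 7.55 to 8.44), and 8 of 10 macrophage markers were lower (5.54 to 5.59, against 6.17 to 6.34). Of the fibroblast markers 2 of 5 were lower, and of the erythroid and platelet markers 2 of 4. Adjusted for the smooth muscle markers, Ccng1 differed by 0.19 (limma adjusted p = 0.803) and Fas by -0.53 (0.643). In that fit 0 genes in all were called, and standard errors were 1.75 times as large at the median. The smooth muscle means of these groups did not overlap, so group and marker level can hardly be told apart. The part of the other marker lists was not tested. Among 25 other p53 targets 1 rose and 3 fell with oxPAPC. Pmaip1 fell by 1.82, Steap3 by 0.80, and Polk, a polymerase that copies past DNA lesions, rose by 0.80. Bcl2a1a fell by 1.35 and Bcl2l11 by 0.59, the 2 calls among 10 BCL2 family genes. Tnfrsf1a fell by 0.81, the one call among 5 death receptor genes. Of 12 cell cycle genes, Ccnd3 (cyclin D3, 0.75) and Ccne1 (cyclin E1, 0.73) rose and Cdk4 fell by 1.05. Upstream of p53, the checkpoint kinase gene Atr fell by 1.00 and the kinase gene Hipk2 rose by 0.55. Of these 8 genes 2 rose and 2 fell. Trp73 was the other that rose, above the 40th percentile on 1 of 3 oxPAPC and 0 of 3 medium arrays. Of the 12 listed calls named for oxPAPC, 5 held whichever array was left out, namely Pmaip1, Polk, Bcl2a1a, Ccnd3 and Ccne1.

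**Figure D3:**
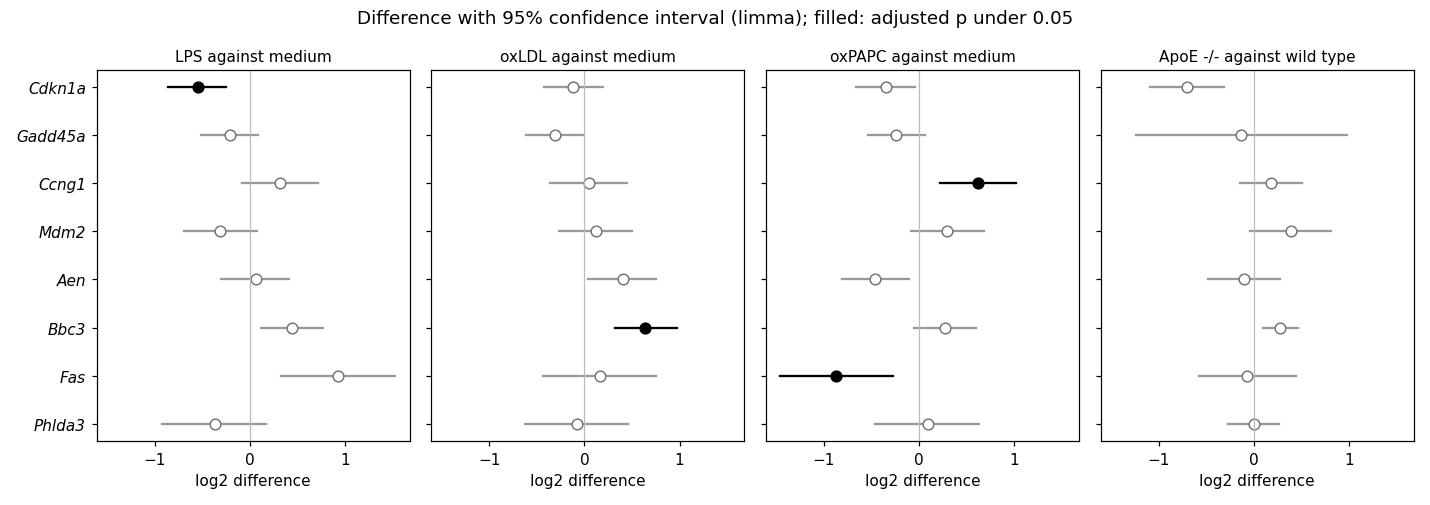
Log2 difference (x axis) of each member gene (rows) in LPS, oxLDL and oxPAPC against medium and in ApoE -/- against wild-type intima; lines are 95% confidence intervals and filled points passed limma's test at an adjusted p under 0.05. Cdkn1a with LPS (-0.55), Bbc3 with oxLDL (0.64) and Ccng1 (0.62) and Fas (-0.87) with oxPAPC are filled, and no member is in ApoE -/- intima.

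The stimuli were also compared with each other, which asks whether they differ in what they do to the same genes. Fas gave the clearest difference: the LPS arrays (7.76, 8.15 and 7.88) lay far above the oxPAPC arrays (6.07, 5.97 and 6.35). LPS exceeded oxPAPC by 1.80 ± 0.27 (SE, limma adjusted p = 0.00252), 3.48-fold, the 60th largest of 7550 differences. This call held in all 14 alternative fits (1.69 to 1.91), among them the fit adjusted for smooth muscle markers. Endothelial markers were higher with LPS for 4 of 15 genes and lower for 1 (mean signal 8.26 to 8.66, against 7.83 to 8.42 with oxPAPC), and their part was not tested. It was the 1 call among 8 members, against 8.65% of all genes, and 3 of 8 members had groups that did not overlap, against 27.8%. In the same comparison Mdm2 measured 9.69, 9.57 and 10 with LPS, against 10.52, 10.32 and 10.22 with oxPAPC, and its difference of -0.60 missed the threshold (limma adjusted p = 0.0573). It passed without LPS replicate 10 (-0.72, 0.0378) and without oxPAPC replicate 13 (-0.67, 0.0427). Aen, at 0.52 (limma adjusted p = 0.0712), likewise passed without LPS replicate 10 (0.63, 0.0435) or oxPAPC replicate 13 (0.66, 0.0188).

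oxLDL exceeded oxPAPC in Aen, at 9.47, 9.36 and 9.60 with oxLDL, against 8.54, 8.42 and 8.90 with oxPAPC. The difference was 0.86 ± 0.16 (SE, limma adjusted p = 0.00758), 1.81-fold, and it was called whichever array was left out. Averaging the 3 Aen probe sets reduced it to 0.23 (limma adjusted p = 0.501). Fas was also higher with oxLDL, at 7.70, 7.01 and 6.75, against 6.07, 5.97 and 6.35 with oxPAPC (1.02 ± 0.27, SE, limma adjusted p = 0.0312). That call was lost without oxLDL replicate 14 (0.75, limma adjusted p = 0.095), oxLDL replicate 15 (1.09, 0.056), oxPAPC replicate 11 (0.99, 0.0926) or oxPAPC replicate 12 (0.94, 0.111). These were 2 calls among 8 members, against 12.4% of all genes (of which 63.1% were higher, and 51.5% after cyclic loess), and 4 of 8 members did not overlap, against 30.0%. Ccng1 measured 8.89, 8.86 and 8.38 with oxLDL, against 9.42, 9.36 and 9.07 with oxPAPC, a difference of -0.57 (limma adjusted p = 0.0628). It passed in 5 of 14 alternative fits, among them cyclic loess (-0.64, limma adjusted p = 0.0465). Of the 6 fits that left out an array it passed in 1, without oxPAPC replicate 13 (-0.68, 0.0376). The second Ccng1 probe set differed by -0.89, without overlap. Adjusted for the smooth muscle markers the Fas difference was 0.88 (limma adjusted p = 0.138). Endothelial markers were higher with oxLDL than with oxPAPC for 6 of 15 genes (mean signal 8.55 to 8.86, against 7.83 to 8.42), and their part in these differences was not tested.

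Between LPS and oxLDL limma called 0 of 8 members, against 5.07% of all genes (43.6% of them higher, and 57% after cyclic loess), with 1625 genes at an unadjusted p under 0.05. Cdkn1a was lower with LPS without overlap, at 10.57, 10.22 and 10.58, against 10.98, 10.94 and 10.76 with oxLDL (-0.44, -0.75 to -0.13, limma adjusted p = 0.0983). Fas was 0.77 higher (0.18 to 1.37, limma adjusted p = 0.126), also without overlap. Aen was the third such member (-0.34, -0.70 to 0.01), and 26.4% of all genes did not overlap.

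In fresh intima the comparison of ApoE -/- with wild-type mice asks whether hyperlipidemia before lesions form is seen in these genes. limma called 0 of 8 members, against 0.427% of 7264 genes, while 1328 genes had an unadjusted p under 0.05. Cdkn1a measured 7.33, 6.73, 6.59 and 6.93 in ApoE -/- intima, against 7.20, 7.65 and 7.95 (lowest, median, highest) in wild-type intima. The groups overlapped through 1 ApoE -/- array, and the difference was -0.70 (-1.09 to -0.31, limma adjusted p = 0.0977). Its second probe set differed by 0.01, from signals mostly below the 40th percentile in both groups. Bbc3 measured 5.10, 4.99, 4.98 and 5.06 in ApoE -/- intima, against 4.68, 4.73 and 4.89 in wild-type intima. It was the 1 member of 8 whose groups did not overlap, against 5.18% of all genes. The difference was 0.28 (0.10 to 0.47), with a limma adjusted p of 0.137.

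Gadd45a spread widely in ApoE -/- intima, with 6.18, 6.14, 7.75 and 4.70, against 5.34, 6.65 and 6.95 in wild-type intima, so its interval ran from -1.24 to 0.98. Mdm2 measured 9.22, 9.40, 9.08 and 9.31 in ApoE -/- intima, against 8.47, 8.76 and 9.37 in wild-type intima (0.39, -0.04 to 0.81). Its second probe set went the other way (-0.52), so no direction can be given. Aen (-0.10, -0.48 to 0.28), Ccng1 (0.18, -0.15 to 0.51), Fas (-0.07, -0.58 to 0.44) and Phlda3 (0.00, -0.27 to 0.27) had intervals that included 0. On the lists, Ccnd1, the gene for cyclin D1, was lower in ApoE -/- intima, at 7.75 ± 0.20 and 8.70 ± 0.30 in wild-type intima (SD, n = 4 and 6, limma adjusted p = 0.0417). It was the only call among 12 cell cycle genes. The call was lost without ApoE -/- replicate 3, 4, 5 or 6 or wild-type replicate 7, 8 or 13 (limma adjusted p = 0.0689 to 0.133), and with the smooth muscle covariate (-0.73, 0.372). Of 21 other p53 targets 0 were called, and the smallest p belonged to Dram1, an autophagy regulator, at -0.60 (limma adjusted p = 0.0828). Smooth muscle markers had a median difference of 0.48, with 0 of 11 called. Of 4 erythroid and platelet markers (median -0.89), the platelet chemokine gene Ppbp was lower, at 3.55 ± 0.32 in ApoE -/- and 6.48 ± 1.23 in wild-type intima (limma adjusted p = 0.0427). It exceeded the 40th percentile on 0 of 4 ApoE -/- and 5 of 6 wild-type arrays. With the smooth muscle covariate limma called 0 members, as without it. The part of the erythroid and platelet markers in the members' differences was not tested.

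The order of group means differed between the members. Cdkn1a ran from medium (11.01 ± 0.11) through oxLDL (10.89 ± 0.12), oxPAPC (10.66 ± 0.11) and LPS (10.46 ± 0.20) to wild-type (7.59 ± 0.29) and ApoE -/- intima (6.89 ± 0.32), all as mean ± SD. Its only neighbours in that order without an overlapping array were LPS and wild type. Gadd45a ran from medium (10.53 ± 0.12) through LPS, oxPAPC and oxLDL (10.22 ± 0.09) to wild-type (6.32 ± 0.70) and ApoE -/- intima (6.19 ± 1.25), with the single gap between oxLDL and wild type. Mdm2 ran from oxPAPC (10.35 ± 0.16) through oxLDL, medium and LPS (9.75 ± 0.22) to ApoE -/- (9.25 ± 0.13) and wild-type intima (8.86 ± 0.41), with its gap between LPS and ApoE -/-. Aen had 3 gaps: oxLDL (9.48 ± 0.12) stood above LPS (9.14 ± 0.20) and medium (9.08 ± 0.13), these above oxPAPC (8.62 ± 0.25), and this above wild-type (6.97 ± 0.28) and ApoE -/- intima (6.86 ± 0.32). The order among the incubated groups is that of the Aen probe set used. Another averaged 5.30 with oxLDL and 5.77 with oxPAPC, and the remaining one 4.92 and 4.62, both with overlapping arrays. Fas had a gap only below medium (7.00 ± 0.50), above oxPAPC (6.13 ± 0.20). Neighbours overlapped throughout for Ccng1, Bbc3 and Phlda3.

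Several members have more than 1 probe set, which gives the same gene a further reading. In medium against wild-type intima the second Cdkn1a probe set differed by 3.70, the second Mdm2 probe set by 1.09 and the other Aen probe sets by 1.72 and 0.89, each without overlap. The second Cdkn1a and both other Aen probe sets exceeded the 40th percentile on 0 of 6 wild-type arrays. The sizes of these rises therefore depend on values near background. The second Ccng1 probe set differed by -0.36, with overlap, and the third was above the 40th percentile on 0 of 22 arrays. With oxPAPC the second Ccng1 probe set was 0.86 higher than in medium and the second Cdkn1a probe set 0.77 lower, each without overlap. The Aen probe sets disagreed with oxPAPC (-0.46 for the one used, 0.29 and -0.22 for the others).

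**Figure D4:**
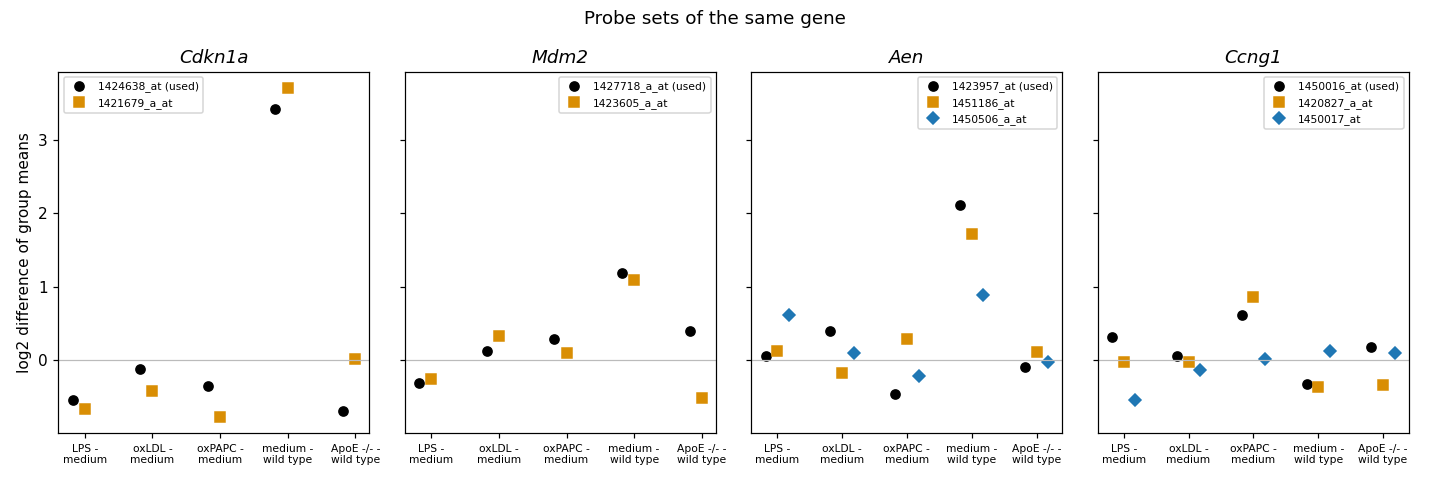
Log2 difference of group means (y axis) for every probe set of the 4 members with more than 1, in 5 comparisons (x axis); black circles are the probe set used. For medium against wild type the probe sets of Cdkn1a (3.42 and 3.70) and Mdm2 (1.19 and 1.09) lie close together, while those of Mdm2 in ApoE -/- against wild type lie on opposite sides of 0 (0.39 and -0.52).

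Among 7941 genes above the level filter, the 5 whose signals most resembled Cdkn1a by Pearson's r over the 22 arrays were Chac1, Atf4, Cry1, Odc1 and Nop58 (0.982 to 0.983). The arrays form a fresh and an incubated cluster, which every gene that moved with incubation shares, so these values mostly describe that split. Within the 12 incubated arrays r was 0.835 for Cry1 and 0.612 for Chac1, but 0.024 for Atf4, -0.042 for Odc1 and 0.040 for Nop58. Within the 10 fresh arrays the 5 genes had r of 0.421 to 0.665. The genes most like Mdm2 were Nfat5, Brd2, Ddx3x, Tox4 and Zfp703. Nfat5 had r = 0.859 within the fresh and 0.926 within the incubated arrays, and the other 4 had 0.631 to 0.849 within the fresh and at least 0.608 within the incubated arrays.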

How the data were processed

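Gene expression was measured on 22 Affymetrix arrays, 1 per sample. The deposited values are log2 signals that the authors obtained by RMA, run in affy according to the submitters' processing notes, with no version stated; the genome build is not given in the sources used here. RMA corrects background, quantile normalizes and summarises probes, so a shift of most transcripts in one direction would not show. Array medians were 5.227 to 5.392. No intensities or detection calls were used.

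Of 22626 probe sets, 18003 had 1 symbol in the platform annotation, 287 several and 4336 none; 17977 matched the RefSeq table used for current names. The level filter asked that a gene exceed each array's 40th percentile on a number of arrays no smaller than the smallest group. It kept 7264 genes in the fresh comparison, 7550 among the 12 incubated arrays (4 groups in 1 fit) and 7508 in medium against fresh wild type, with all 8 members in each. limma 3.58.1 (lmFit, eBayes) in R 4.3.3 gave two-sided p-values, adjusted by Benjamini-Hochberg over all genes tested and called under 0.05. The fitting code was also run on simulated data with independent normal noise for each gene. Such data hold no shift shared by genes of an array, so they do not test for one. Members, lists and tests were chosen with earlier results of these data known. Genes named from a list were its called genes, at most 3 by size, or, with none called, that with the smallest p. For medium against wild type, Sesn1, Ddb2, Pcna, Cdk6, Ccnd3, Ccnd2 and Rb1 were added after their values were seen. Alternatives were median centring, cyclic loess, no level filter, the mean of a gene's probe sets, eBayes with trend and robust, other sets of arrays, the smooth muscle marker mean as a covariate, and each array left out. Figures were drawn with matplotlib 3.10.9.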

Additional observations from a re-analysis of the deposited data

Results flagged for a closer look

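Fas in ApoE -/- replicate 4 measured 7.59, apart from the other 3 arrays of its group, of which the nearest was at 7.13. The gap was 0.833 of the group's range, just above the 95% critical value of Dixon's test for 4 values. It was the 1 of 16 tested sets of values (8 members in the 2 fresh groups) to stand out, and chance alone marks about 1 in 20 of them.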

How the results depend on the processing

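No member that was called changed direction under any alternative. Members called with 1 array left out numbered 0 to 0 for ApoE -/- against wild type (0 with all arrays), 0 to 0 for LPS against medium (1), 0 to 1 for oxLDL against medium (1), 0 to 3 for oxPAPC against medium (2), 4 to 5 for medium against wild type (5), 0 to 0 for LPS against oxLDL (0), 1 to 3 for LPS against oxPAPC (1) and 1 to 3 for oxLDL against oxPAPC (2). With the smooth muscle covariate the numbers were 0 for LPS, 0 for oxLDL and 0 for oxPAPC against medium, 3 for medium against wild type and 1 for oxLDL against oxPAPC; its fits had standard errors 1.04 to 1.79 times as large at the median. With all 22 arrays in 1 fit they were 1 for ApoE -/- against wild type (Cdkn1a, limma adjusted p = 0.0363), 2 for LPS against medium (Bbc3, 0.0205, and Fas, 0.0444, while Cdkn1a missed at 0.0583) and 4 for oxLDL against oxPAPC. With only the arrays of the groups compared they were 0 for LPS, 0 for oxLDL and 1 for oxPAPC against medium, and 1 for oxLDL against oxPAPC. Trend and robust eBayes gave 4 for oxPAPC against medium, 1 for LPS against oxLDL and 3 for LPS against oxPAPC. Cyclic loess gave 2 for LPS (Cdkn1a and Fas, limma adjusted p = 0.0379 for Fas) and 1 for oxPAPC against medium, median centring and no level filter 1 each for oxPAPC against medium, and the mean of probe sets 2 for LPS against oxPAPC. The cause of these shifts was not tested. Of 936 alternative values of the members 50 fell short of a threshold that the reported value passed, and of 2253 values of the genes named from lists 437 did. Both totals include values of results that were not called as reported, which cannot fall short. These shares therefore understate how often a call was lost. Over all alternatives the genes called ranged from 1 to 77 for ApoE -/- against wild type (31 as reported), 130 to 1080 for LPS (683), 23 to 544 for oxLDL (212) and 0 to 2004 for oxPAPC against medium (1606), 2242 to 4813 for medium against wild type (4410), 133 to 648 for LPS against oxLDL (383), 244 to 1206 for LPS against oxPAPC (653) and 309 to 1370 for oxLDL against oxPAPC (934). No paired analysis was possible because the groups compared share fewer than 2 replicate numbers. With 3 arrays a group, an exact permutation test of 1 gene cannot go below 0.1, and signals of Bbc3 and Phlda3 near the 40th percentile compress their differences.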

Other observations

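Relatives of the members differed between oxLDL and oxPAPC. Of 8 tested CDK inhibitors and GADD45 and PHLDA relatives, 5 were lower with oxLDL than with oxPAPC and 0 higher (limma, adjusted p under 0.05), where 345 of all 7550 genes were lower and 589 higher. Phlda1 averaged 6.01 ± 0.32 with oxLDL and 7.67 ± 0.12 with oxPAPC (SD, n = 3 each, limma adjusted p = 0.00758). Gadd45b averaged 7.26 ± 0.25 with oxLDL and 8.52 ± 0.43 with oxPAPC (limma adjusted p = 0.0135), and Cdkn1b, the gene for the inhibitor p27, 6.38 ± 0.05 with oxLDL and 7.50 ± 0.50 with oxPAPC (limma adjusted p = 0.0129). Of these 3, Phlda1 was called whichever array was left out. Gadd45b was lost without oxLDL replicate 16 or oxPAPC replicate 12 (limma adjusted p = 0.0508 to 0.0614), and Cdkn1b without oxPAPC replicate 11 or 12 (0.054 to 0.0573). Adjusted for the smooth muscle markers, Phlda1 passed (-1.64, limma adjusted p = 0.0423), and Gadd45b (-1.28, 0.0553) and Cdkn1b (-0.98, 0.0725) did not. Endothelial markers were higher with oxLDL for 6 of 15 genes, macrophage markers higher for 1 of 10 and smooth muscle markers lower for 2 of 11, and the part of the endothelial and macrophage markers was not tested. Of 25 other p53 targets, 1 was higher and 1 lower with oxLDL than with oxPAPC. Ei24, an endoplasmic reticulum protein that p53 induces, was higher by 0.59 (limma adjusted p = 0.0292), and Ppm1d, a phosphatase that turns the p53 response down, was lower by 1.02 (0.0229). Ppm1d was lost in 3 and Ei24 in 4 of the 6 fits that left out an array, and Ppm1d also with the smooth muscle adjustment (0.095). The lists were described by counts, and no test of a list as a whole was made.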
